A study of Mus musculus with 2 samples.

Results

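Otx2, Fgf5, Pou3f1, Foxd3, Wnt8a and Sox3 are genes that mark or drive the transition of mouse epiblast from the naive to the formative and primed states. They were followed here as 6 of the 22238 protein-coding genes annotated on mm9, and every peak of the transcription factor POU5F1 (OCT4) whose centre or summit lay within 50 kb of one of their transcript starts was taken. The peaks came from chromatin immunoprecipitation followed by sequencing (ChIP-seq) with a POU5F1 antibody in E14TG2a.4, a male embryonic stem cell line of the mouse strain 129/Ola. There is 1 group with 2 biological replicates of this single line and no second cell state. The culture medium, and therefore how far these cells were from the naive state, is not stated in the labels. A control experiment is named there and was not analysed here.

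Naive embryonic stem cells resemble the epiblast before implantation, and they go through a formative state before they become primed for the germ layers. POU5F1 is expressed throughout the transition, and it binds DNA through a POU-specific domain and a POU homeodomain that together read the octamer, often beside a SOX site. OTX2 is known to work with POU5F1 at enhancers that become active when naive cells leave that state. A POU5F1 peak records where the protein was cross-linked to DNA, and it does not show whether a nearby gene was expressed.

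Peak lists were provided by the authors for 2 genome builds. On mm9 the list of the whole series held 5515 peaks, that of replicate 1 held 1330 and that of replicate 2 held 6324. On mm10 an irreproducible discovery rate (IDR) procedure, which keeps peaks that rank alike in repeated measurements, gave an optimal list of 3994 peaks and a conservative list of 2676. On mm10 a relaxed list of 300000 entries of peaks and background was also given for each replicate and for the pooled replicates. Signal is the authors' own value per peak and its scaling is not stated, so only ranks within a list (1 is the highest signal) are set beside each other. Sequencing depth is unknown, as no read counts were used. The whole-series, optimal and conservative lists rest on the same 2 replicates and give no independent support to each other.

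POU5F1 peaks lay near 5 of the 6 genes in at least 1 of the 5 lists, and which genes were found depended on the list. The share of all genes near a peak in at least 1 list was not computed, so only the counts per list have a share beside them. In the mm9 whole-series list 3 of 6 had a peak within 50 kb (Otx2, Pou3f1 and Wnt8a), where 27.3% of all protein-coding genes had one. In the replicate 2 list the count was 5 of 6, with Fgf5 as the exception, against 30.1% of all genes. In the replicate 1 list it was 0 of 6, against 8.15%, and a count of 0 among 6 allows a share of up to 45.9% by the exact 95% interval. On mm10 the optimal list gave 3 of 6 (Pou3f1, Wnt8a and Sox3) against 19.5% of 20352 genes, and the conservative list gave 4 of 6 (Otx2, Pou3f1, Foxd3 and Wnt8a) against 13.7%. Pou3f1 and Wnt8a were the genes found in 4 of these 5 lists. The exact 95% interval for 3 of 6, in the whole-series and optimal lists, was 11.8 to 88.2%. For replicate 2 the interval was 35.9 to 99.6%, and for the conservative list 22.3 to 95.7%. These intervals cover counting error only. The genes were picked by hand with earlier results of these data known, so the intervals are no test against the share of all genes. No difference from the other genes was tested.

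**Figure D1:**
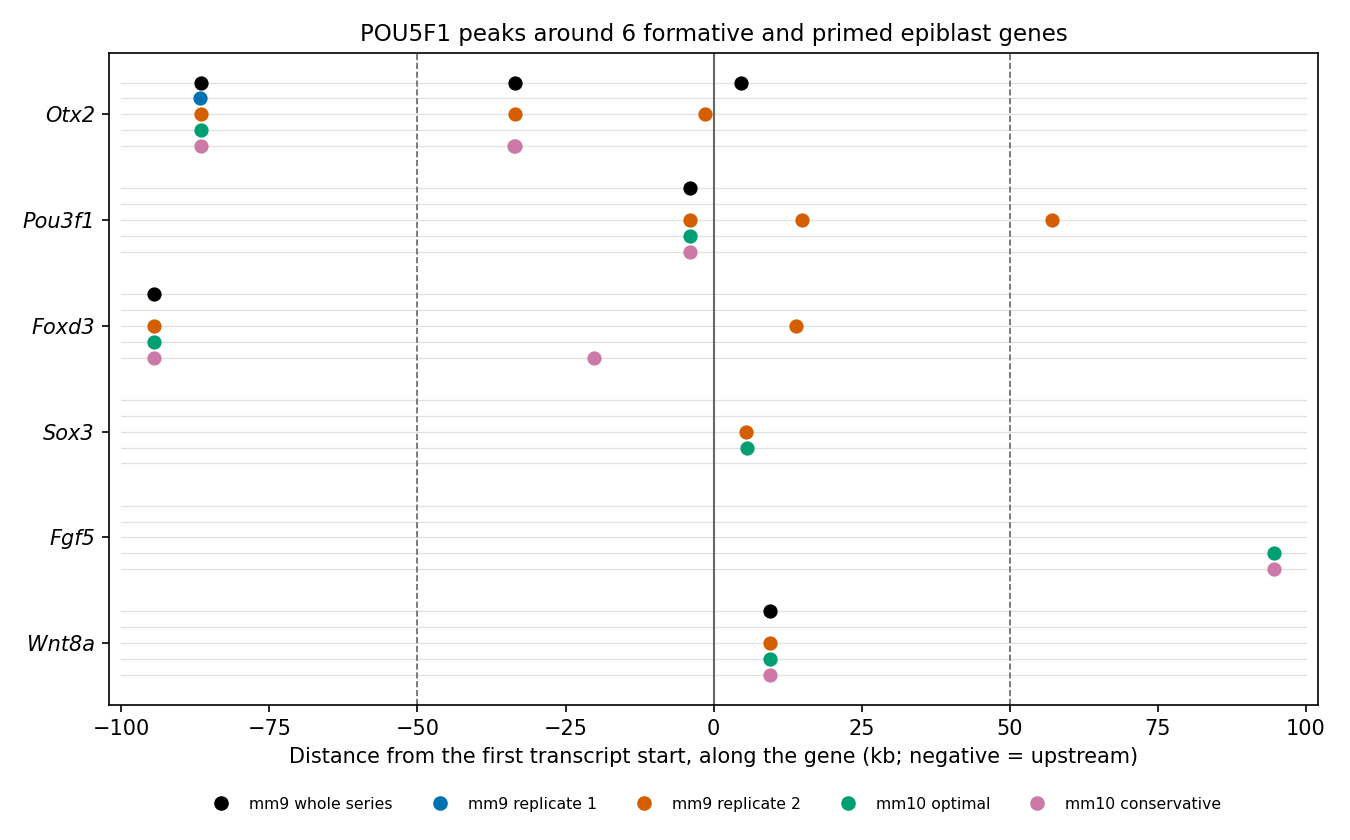
Position of every POU5F1 peak within 100 kb of the 6 genes, as the distance in kb from the first transcript start along the gene (negative is upstream), with 1 row per peak list and dashed lines at 50 kb on each side. Fgf5 has 0 peaks between the dashed lines, and replicate 1 of the mm9 lists has a single peak, 86.6 kb upstream of Otx2.

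In all, 4 whole-series peaks, 7 replicate 2 peaks, 3 optimal peaks and 5 conservative peaks lay within 50 kb of the members. Of the conservative peaks, 2 were overlapping entries at a single Otx2 site. Of the 4 whole-series peaks, 3 overlapped a peak of the replicate 2 list only, a class that held 64.8% of all 5515 peaks. The remaining peak, in Otx2, overlapped neither replicate list, as 12.5% of all peaks did. Overlap with both lists was seen for 0 of the 4 and for 21.9% of all peaks. The 4 peaks had signals between 4.11 and 6.75, with a median of 4.7 beside a median of 5.58 for the whole list. For each peak within 50 kb, the nearest protein-coding start was that of the member itself.

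Otx2 encodes a homeodomain factor that drives entry into the formative state. The gene lies on the minus strand of mm9 chromosome 14 (49277354 to 49287319, ENSMUSG00000021848.9) and has 7 distinct annotated starts. It had 2 whole-series peaks within 50 kb, as did 4.62% of all genes, while 21.2% had 1 and 72.7% had 0. The first lay in an intron at chr14:49282612-49282873, 4576 bp downstream of the first start and 196 bp upstream of an internal one. Its signal was 4.11, its deposited −log10 p-value 5.51 and its rank 4887 of 5515. No peak of either replicate list overlapped it, and in the relaxed lists there was 0 entry for replicate 1 and an entry of rank 268717 of 300000 for replicate 2. The second lay between genes, 33604 bp upstream, at chr14:49320731-49321115, with signal 4.41, −log10 p-value 10.3 and rank 4384. The sequences below are the 201 bp around the centres of these 2 peaks, read on the plus strand of the NCBIM37 (mm9) genome at chr14:49282643-49282843 and chr14:49320823-49321023. Capitals mark the octamer ATGCAAAT on either strand with at most 1 mismatch. They are shown because the intronic peak, the weakest of the 4 by signal, is the only member window of the whole-series list with an exact octamer.
Otx2 intron: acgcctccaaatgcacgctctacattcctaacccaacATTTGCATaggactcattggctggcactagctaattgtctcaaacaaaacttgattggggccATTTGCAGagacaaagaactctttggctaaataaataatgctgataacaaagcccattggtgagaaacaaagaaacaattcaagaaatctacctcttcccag
Otx2 upstream: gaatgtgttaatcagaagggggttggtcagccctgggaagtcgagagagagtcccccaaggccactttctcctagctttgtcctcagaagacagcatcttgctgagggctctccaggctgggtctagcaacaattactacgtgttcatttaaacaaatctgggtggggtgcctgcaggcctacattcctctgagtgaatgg

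The exact octamer of the intronic window was on the minus strand at 49282680 to 49282687, and an octamer with 1 mismatch followed on the same strand at 49282742 to 49282749. The upstream window held no octamer with up to 1 mismatch. Over all whole-series peaks, 13.4% of such windows held an exact octamer and 53.7% held one with up to 1 mismatch.

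In the relaxed mm10 list of replicate 1, the upstream Otx2 site was the best ranked of the members' sites. Its relaxed entry ranked 1371 in replicate 1 (signal 16.2) and 1942 in replicate 2 (signal 25.8), while the pooled entry ranked 5503 (signal 22.4). The site thus stood further down the pooled list than that of either replicate. The summits of the 2 replicates lay 267 bp apart, 33717 and 33450 bp upstream of the start. The conservative list carried 2 overlapping entries there, at chr14:48700927-48701262 and chr14:48701148-48701483 on mm10, with ranks 2537 and 2652 of 2676. Their signals were 22.4 and 10.4 and their deposited −log10 q values 1.51 and 0.048, so the second was weak. The optimal list had no peak at the site, and 239 conservative peaks (8.93%) overlapped no optimal peak. On mm9 the site had signal 6.8 and rank 4994 of 6324 in the replicate 2 list and was missing from that of replicate 1.

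Nearer to the gene, a peak 1517 bp upstream of the first Otx2 start (chr14:49288724-49288948 on mm9) was in the replicate 2 list only. Its signal was 7.56, its q-value 0.0314 and its rank 3969 of 6324. In the relaxed lists this site ranked 3926 in replicate 2 and 44629 in the pooled list, and replicate 1 had no entry there. A relaxed entry 806 bp downstream of the mm10 start ranked higher in replicate 2, at 3631 (signal 18.2). The pooled list had it at 809 bp with rank 7527, and none of the 5 called lists had a peak there. Outside the 50 kb limit stood the Otx2 site with the highest signal in the whole-series list, 86.6 kb upstream at chr14:49373678-49374143, with signal 7.93, −log10 p-value 26.0 and rank 875. It was present in all 5 lists, and Otx2 had the nearest protein-coding start. Its ranks were 665 of 1330 in replicate 1, 1081 of 6324 in replicate 2, and 1088 of 3994 in the optimal list. Its relaxed ranks were 1900 in replicate 1, behind the site 33.7 kb upstream, and 1367 in replicate 2, ahead of it.

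Pou3f1 encodes OCT6, a POU factor of the same family as POU5F1 that rises in formative cells. The gene lies on the plus strand of mm9 chromosome 4 (124334896 to 124337899, ENSMUSG00000078236.3). A peak between genes 4024 bp upstream, at chr4:124330680-124331064, had signal 4.99, −log10 p-value 10.3 and rank 3324 of 5515 in the whole-series list. In the replicate 2 list it had signal 7.56 and rank 3969 of 6324, and it was missing from the replicate 1 list. The relaxed mm10 lists had entries at the site in both replicates, of rank 3280 (signal 13.3) in replicate 1 and 8320 (signal 12.7) in replicate 2, so here replicate 1 ranked the site higher. The optimal list held the site at chr4:124653445-124653780 on mm10, 4033 bp upstream, with signal 27.5, score 775 and rank 3222 of 3994. It was also in the conservative list, at rank 2387 of 2676. The 201 bp around the mm9 peak centre, chr4:124330772-124330972 on the plus strand of NCBIM37, are shown because they hold the closest match among the 4 whole-series windows to the composite SOX-POU element, a SOX site followed by an octamer. Capitals mark that match, which has 3 mismatches.
Pou3f1 upstream: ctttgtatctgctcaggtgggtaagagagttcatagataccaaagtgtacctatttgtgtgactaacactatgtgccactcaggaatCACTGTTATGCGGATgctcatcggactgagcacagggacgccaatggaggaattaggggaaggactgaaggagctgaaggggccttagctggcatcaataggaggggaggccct

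With 3 mismatches allowed, the composite element was found in 28.7% of all whole-series windows. With up to 2 mismatches it was found in 0 of the 4 member windows and in 9.30% of all, and with up to 1 in 1.89% of all. A further Pou3f1 peak was in the replicate 2 list only, 14934 bp downstream of the start and between genes (chr4:124349721-124349939), with signal 8.31, q-value 0.0433 and rank 3163 of 6324. In the relaxed lists it ranked 13230 in replicate 2 and 261962 in replicate 1. Just outside the limit, the replicate 2 list had a peak of signal 6.05, 57143 bp downstream of Pou3f1, which lay in an exon of Sf3a3, a splicing factor gene, 19 bp from its start.

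Foxd3 encodes a forkhead factor that acts at enhancers during the exit from the naive state. The gene lies on the plus strand of mm9 chromosome 4 (99322990 to 99325362, ENSMUSG00000067261.3), and 2 different sites were listed near it, each in a single list. The replicate 2 list had a peak 13896 bp downstream of the start, in an intron of the annotated gene Gm12682 (chr4:99336787-99336984), with signal 6.8, −log10 p-value 5.04 and q-value 0.128. The lowest −log10 p-value in the mm9 lists is 5, so this peak stood close to the threshold of the list. At the matching distance, the relaxed list of replicate 2 ranked it 9222, and that of replicate 1 had no entry. The conservative mm10 list had a peak 20129 bp upstream (chr4:99636002-99636337), with signal 26.7, score 651 and rank 2425 of 2676, and neither the optimal list nor an mm9 list had it. Both replicates had a relaxed entry there, of rank 3863 (signal 12.9) in replicate 1 and 5770 (signal 14.4) in replicate 2. Beyond the limit, a site 94.4 kb upstream was in the whole-series list (signal 5.87, rank 2148), the replicate 2 list, the optimal list (rank 2516) and the conservative list.

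Sox3 encodes a SOXB1 factor closely related to SOX2, the partner of POU5F1. The gene lies on the minus strand of mm9 chromosome X (58144545 to 58146605, ENSMUSG00000045179.7) and has 2 distinct starts. A peak between genes lay 5314 bp downstream of the nearer start, beyond the end of the gene (chrX:58140976-58141155), and was in the replicate 2 list of mm9 only, with signal 7.56, q-value 0.0435 and rank 3969 of 6324. On mm10 the optimal list held a peak 5560 bp downstream (chrX:60887702-60888037), with signal 30.8, score 1000 and rank 2765 of 3994, and the conservative list did not. The replicates stood far apart at this site: its relaxed entry ranked 2326 (signal 23.3) in replicate 2 and 93936 (signal 7.70) in replicate 1. The optimal peaks as a whole had median ranks of 2006.5 in replicate 2 and 3146 in replicate 1, over the 3976 and 3722 that overlapped an entry. The 201 bp around the mm9 peak centre, chrX:58140966-58141166 on the plus strand of NCBIM37, are shown with an octamer of 1 mismatch in capitals, which lay on the minus strand at 58140984 to 58140991.
Sox3 downstream: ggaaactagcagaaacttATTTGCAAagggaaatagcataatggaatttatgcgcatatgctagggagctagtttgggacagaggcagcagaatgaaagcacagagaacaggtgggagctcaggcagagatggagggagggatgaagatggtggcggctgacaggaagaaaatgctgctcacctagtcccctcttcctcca

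In the replicate 2 list, 2 of the 7 member windows, those of Sox3 and of the Foxd3 site in an intron of Gm12682, held an octamer with up to 1 mismatch, as did 51.5% of all windows, and 0 of 7 held an exact one, beside 12.8% of all. The SOX site CATTGT was found in 0 of the 4 whole-series member windows and in 19.1% of all, and the OTX site GGATTA in 0 of 4 and in 7.38%. Both were exact searches. The MORE palindrome, which POU dimers bind, was searched with up to 1 mismatch and found in 0 of 4 and in 2.38%. All motifs were searched on both strands, and the octamer is a part of the composite element. A missing match says only that no such letters, within the mismatches allowed, lie within 100 bp of the centre.

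Fgf5 encodes a fibroblast growth factor and is the usual marker of formative and primed epiblast. The gene lies on the plus strand of mm9 chromosome 5 (98683203 to 98706049, ENSMUSG00000029337.1), and no list had a peak within 50 kb of its start. The relaxed lists showed weaker entries inside the gene, 1749 bp downstream of the start in replicate 1 and 1689 bp in replicate 2. Their ranks were 23351 (signal 9.84) and 11372 (signal 11.7). The pooled list had the same site at 1685 bp with rank 4465, signal 24.4 and −log10 q of 1.96. The pooled entry at Fgf5 thus ranked above the pooled entry of the upstream Otx2 site, at 5503, which was in the conservative list while the Fgf5 entry was in no final list. The strongest entry of replicate 1 within 50 kb of Fgf5 lay 38.9 kb downstream at rank 9154, with Cfap299, a cilia and flagella gene, as the nearest start. The optimal and conservative lists held a peak 94.6 kb downstream of Fgf5, at rank 3303 of 3994 in the former, which lay 19602 bp from the start of Cfap299.

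Wnt8a encodes a WNT ligand expressed around gastrulation. The gene lies on the plus strand of mm9 chromosome 18 (34701967 to 34707927, ENSMUSG00000012282.2). Its peak, between genes and 9566 bp downstream of the start at chr18:34711291-34711775, had the highest signal and rank of the 4 whole-series member peaks, with signal 6.75, −log10 p-value 20.4 and rank 1402 of 5515. In the replicate 2 list it had signal 12.1 and rank 1108 of 6324, and it was missing from the replicate 1 list. On mm10 it was in the optimal list (signal 40.9, score 1000, rank 1672 of 3994) and the conservative list (rank 1542 of 2676), 9496 bp downstream. The relaxed entries ranked 1809 (signal 26.7) in replicate 2 and 13023 (signal 10.8) in replicate 1. At Wnt8a, as at Sox3, the site stood far higher in replicate 2 than in replicate 1.

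**Figure D2:**
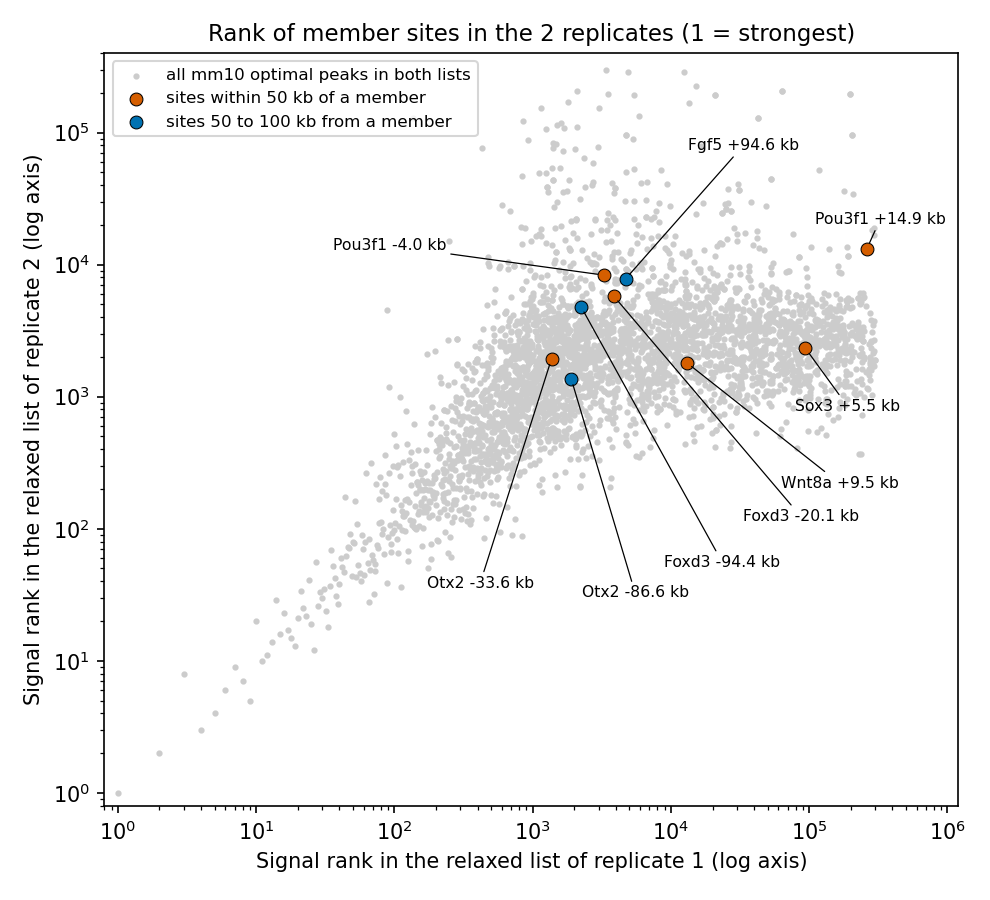
Signal rank of the members' sites in the relaxed mm10 list of replicate 1 (x axis) and replicate 2 (y axis), both on log axes with 1 as the strongest, over the optimal peaks found in both lists (grey). Orange points are sites within 50 kb of a member and blue points sites 50 to 100 kb away. Sites with no entry in the relaxed list of replicate 1 are not drawn. The Otx2 sites that are drawn lie near the diagonal at ranks 1367 to 1942. Sox3 and the downstream Pou3f1 site lie far to the right, at 93936 and 261962 in replicate 1.

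The strongest relaxed entry within 50 kb of each gene gives every member a rank, whether or not a peak was called. The genes differ in how many entries they have to draw from, with 5 at Sox3 and 23 at Otx2 in replicate 1. The ranks were not adjusted for this, nor for Sox3 lying on chromosome X in a male line. Among 20352 genes, Otx2 stood in the top 7.67% in replicate 1 and 10.2% in replicate 2, and Foxd3 in the top 20.8% and 26.5%. Pou3f1 stood in the top 17.9% and 36.0%, and Fgf5 in the top 40.3% and 45.5%. Wnt8a was in the top 50% in replicate 1 and 9.78% in replicate 2, and Sox3 in the top 91.7% and 12%. Wnt8a and Sox3 thus moved more between replicates than Otx2, Foxd3, Pou3f1 and Fgf5. With genes that had no entry placed last, the median gene ranked 13030.5 in replicate 1 and 12974 in replicate 2. Of the 6 members, 5 had a better rank than it in replicate 1, with Wnt8a at 13023 just inside, and 6 did in replicate 2. The medians of the 6 were 6508.5 and 4048. In the pooled list all 6 were better than the median gene, with a median of 3632.5 beside 12880.5. The order of the members changed there. Wnt8a stood in the top 9.09%, Sox3 in the top 14.8% and Pou3f1 in the top 17.7%. Foxd3 followed at 18.6% and Fgf5 at 21.6%, and Otx2 was the lowest of the 6 at 26.0%.

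**Figure D3:**
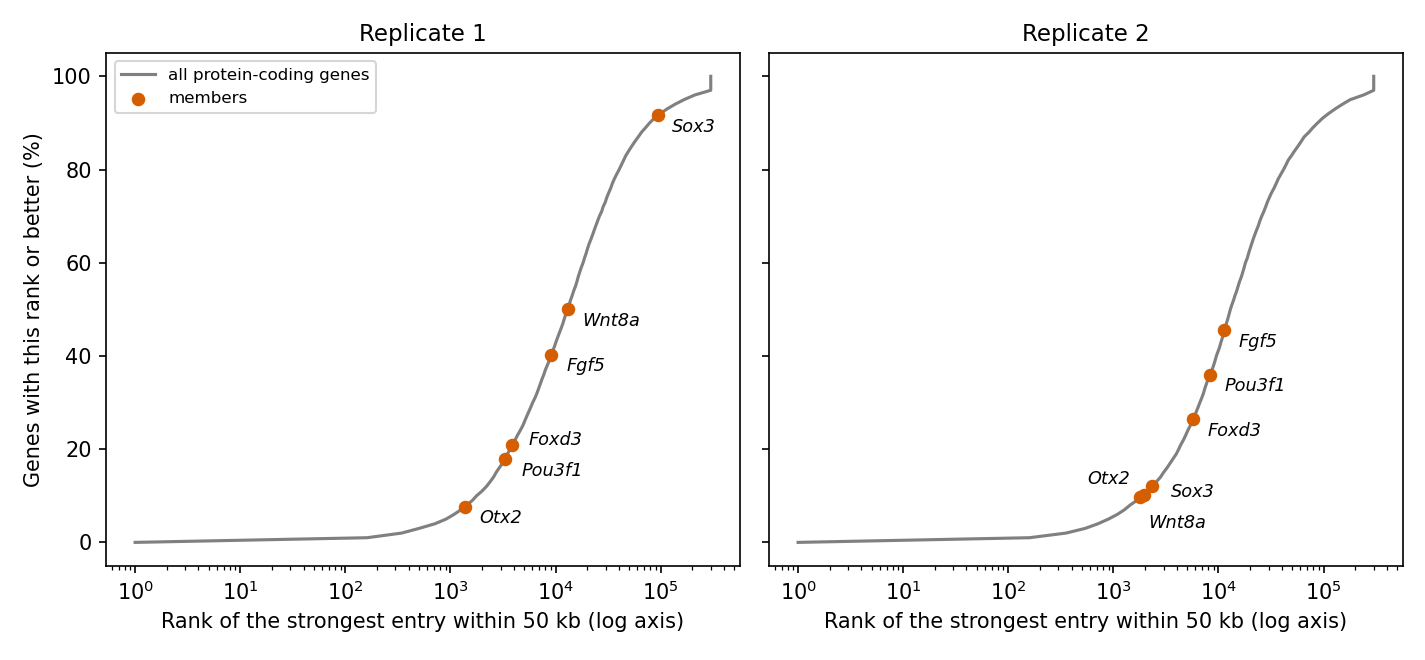
Rank of the strongest relaxed entry within 50 kb of each gene (x axis, log scale) against the percentage of all protein-coding genes with that rank or better (y axis), for replicate 1 (left) and replicate 2 (right). The grey line is all 20352 genes, with genes that have no entry at the upper right end, and the orange points are the 6 members. Sox3 moves from 91.7% to 12% and Otx2 stays at 7.67% and 10.2%. The pooled list, where Otx2 stood at 26.0%, is not drawn.

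Other formative and primed epiblast genes, from a list that leaves out the members, were near a whole-series peak in 13 of 24 cases. In replicate 1 the count was 7 of 24 and in replicate 2 it was 12 of 24. On mm10 the optimal list gave 13 of 24 and the conservative list 11 of 24. The shares of all genes were 27.3% in the whole-series list, 8.15% in replicate 1 and 30.1% in replicate 2. In the optimal and conservative lists they were 19.5% and 13.7%. The highest signals near them were 13.8 at Utf1, a chromatin-associated factor of pluripotent cells, 9.98 at Nodal, a TGF-beta family ligand, and 9.10 at Fgf15, a growth factor gene. Zic2 and Zic5, neighbouring zinc finger genes, shared a peak of 8.22, whose nearest protein-coding start was that of Gm5089. These values were picked as the highest of the list, in which the strongest peaks of other genes reached down to 3.30. The picked values were above 6.75 at Wnt8a, the highest whole-series signal near a member, while other genes of the list were below it. The median ranks of the strongest relaxed entry were 5611 and 4647 in replicates 1 and 2 for these 24 genes, beside 6508.5 and 4048 for the members.

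Naive pluripotency genes were near a whole-series peak in 12 of 16 cases, with 7 of 16 in replicate 1 and 12 of 16 in replicate 2. On mm10 the optimal list gave 8 of 16 and the conservative list 9 of 16. Beside these counts, 27.3% of all genes were near a whole-series peak, 8.15% in replicate 1 and 30.1% in replicate 2. The mm10 shares of all genes were 19.5% in the optimal and 13.7% in the conservative list. The highest signals were 12.3 at Dppa3, a maternal factor gene whose peak was nearest to Gdf3, 9.96 at Nanog, 9.10 at Fgf4, and 8.81 at Klf2. The Klf2 peak was nearest to the start of Gm10282. Fgf4 shares its peak with its neighbour Fgf15, and this peak counts in each of the 3 further gene lists. Paralogs of the members were near a whole-series peak in 5 of 12 cases, with 3 of 12 in replicate 1 and 5 of 12 in replicate 2. On mm10 their counts were 5 of 12 in the optimal list and 3 of 12 in the conservative list. Sox2 had the highest signal of these, 19.1, followed by Fgf4, by Pou3f3 at 6.46 and by Foxd1 at 4.41. In the replicate 1 list, the 3 paralogs with a peak were Fgf4, Pou3f3 and Sox2, where the members had 0 of 6. The lists differ in size and were chosen with earlier results known, and no difference between them was tested.

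**Figure D4:**
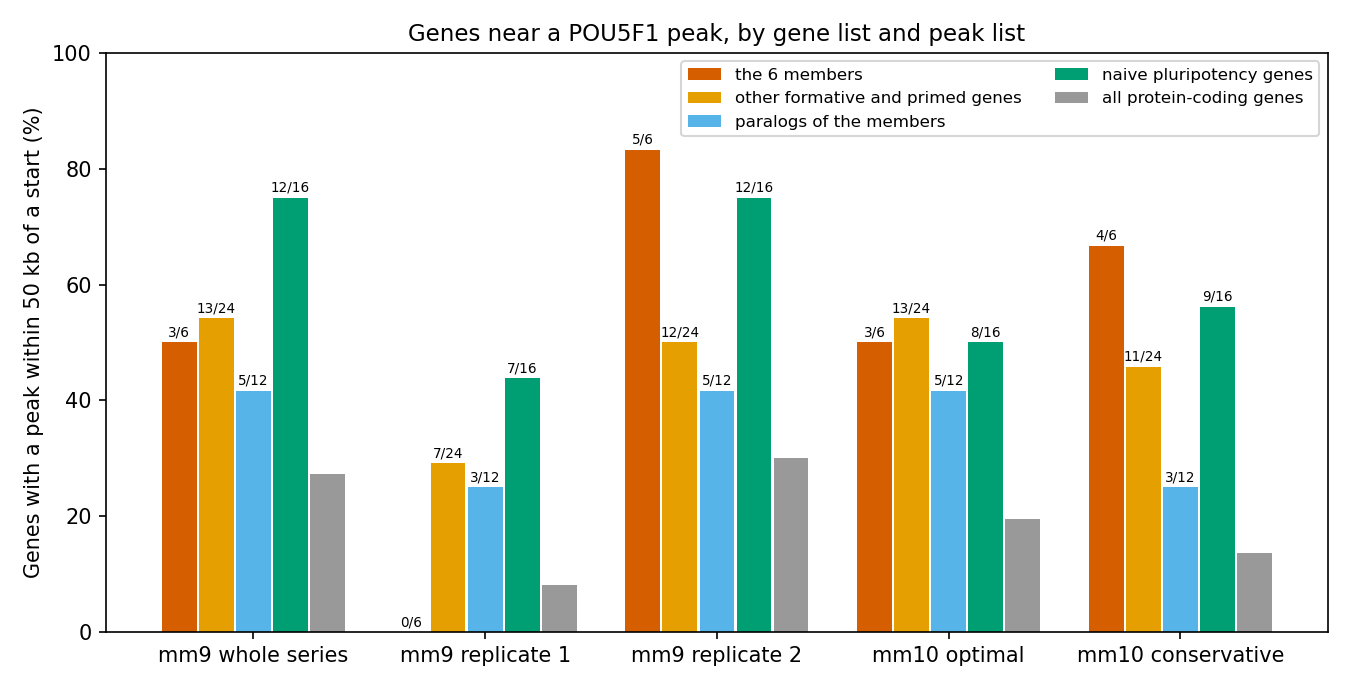
Share of genes with a POU5F1 peak within 50 kb of a start (y axis, %), for the 6 members, 3 further gene lists and all protein-coding genes (grey), in each of the 5 peak lists (x axis), with counts above the bars. The members range from 0 of 6 in replicate 1 to 5 of 6 in replicate 2, and all protein-coding genes from 8.15% to 30.1% in the same lists.

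Widening the window took in the distal sites described above. Within 100 kb, 4 of 6 members had a whole-series peak, with Foxd3 added, against 43.3% of all genes. In the optimal list 6 of 6 had one, with Otx2, Foxd3 and Fgf5 added, against 32.9% of all genes. The peaks just inside the 50 kb limit were those of Otx2 at 33.6 kb, and the ones just outside were that of Pou3f1 at 57.1 kb in the replicate 2 list and that of Otx2 at 86.6 kb.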

How the data were processed

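ChIP-seq peak lists for POU5F1 in 2 biological replicates (1 group) were used as deposited by the authors. The deposited signal per peak has no stated scaling and was used only to rank peaks within a list, with tied peaks sharing the better rank. An mm9 rank can therefore stand for a block of tied peaks. In the replicate 2 list, peaks of signal 7.56 at Otx2, Pou3f1 and Sox3 all had rank 3969. The mm9 lists deposited by the authors give a −log10 p-value and a q-value per peak, with no −log10 p below 5. For mm10 the authors gave −log10 q per peak, and the deposited IDR lists also a score of up to 1000. Peak caller, aligner, IDR threshold and depth are not given in the sources used here.

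Distances ran from the peak centre (mm9) or summit (mm10) to the nearest transcript start. Starts came from GENCODE M1 on NCBIM37 (mm9). For mm10 they were gene ends from RefSeq on GRCm38.p6, with the strand looked up by symbol in GENCODE M1, for 20352 of 21900 protein-coding genes. Builds were never converted: sites were paired across them by distance from the first start, within 300 bp. Peaks overlapped when they shared at least 1 bp. Sequences were read from NCBIM37 in 100 bp on each side of the centre.

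The members, gene lists and motifs were chosen with earlier results of these data known, so no test was run and no p-value computed. Named genes were all 6 members, the gene with the nearest start to each member peak, and in each further list the up to 4 genes with the highest whole-series signal (5 where a peak was shared). Sox1 of the paralog list was not analysed here. Alternatives were distance limits of 10 and 100 kb, nearest-gene attribution, a −log10 p-value of at least 10, edge distance, other overlap rules, each replicate alone, the conservative list and other mismatch limits. Python 3.11.15, numpy 2.4.6, pandas 2.3.3, scipy 1.17.1 and matplotlib 3.10.9 were used, and the distance and motif searches were tested on simulated data.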

Additional observations from a re-analysis of the deposited data

How the results depend on the processing

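Of the alternative values, 20 stayed within 1.5 times the count reported and 8 did not. Leaving out 1 replicate moved the number of members near a whole-series peak from 3 to a range of 0 to 5, and the number of such peaks from 4 to a range of 0 to 7, with the low ends from replicate 1 alone and the high ends from replicate 2 alone. With a 100 kb window the optimal list gave 6 members and 6 peaks in place of 3 and 3. The conservative list gave 5 peaks within 50 kb, of which 2 were overlapping entries at the upstream Otx2 site. Allowing 3 mismatches gave 1 composite match in place of 0. The wider windows and the looser match hold more by construction, and the cause of the difference between replicates was not tested. Limits of 10 kb, nearest-gene attribution, edge distances, a −log10 p-value of at least 10, and other overlap rules moved no count by more than 1.5 times. No paired analysis was possible because there is 1 group and no test. Depth is unknown, so a peak missing from the replicate 1 list was not detected there and is not shown to be absent.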

Other observations

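A second relaxed entry inside Fgf5 lay 7.9 kb downstream of the start, at rank 12672 in replicate 1 (signal 10.8) and 37470 in the pooled list (signal 14.7). The number of relaxed entries within 50 kb differed between members, from 5 at Sox3 to 23 at Otx2 in replicate 1 and from 7 to 29 at the same genes in replicate 2, beside medians over all genes of 16 and 17. An exact SOX site lay in the upstream Otx2 peak outside the searched window, on the minus strand at 49320738 to 49320743 of mm9 chromosome 14.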
